A study of Homo sapiens with 38 samples.

Results

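The genes described here are the nuclear genes of oxidative phosphorylation (OXPHOS), taken from the deposited gene table by symbol. They are the protein-coding genes whose symbols begin with NDUFA, NDUFB, NDUFC, NDUFS, NDUFV, UQCR, ATP5, COX4I, COX5, COX6, COX7 or COX8, together with SDHA, SDHB, SDHC, SDHD and CYC1. The rule took 100 of the 58219 genes in the table. Of these, 95 passed a filter of at least 1 TPM in at least 2 libraries, among 28221 genes tested. TPM takes transcript length into account and sums to the same total in every library, so levels can be compared between genes.

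The respiratory chain is a set of protein complexes in the inner mitochondrial membrane. Complexes I and II pass electrons from NADH and succinate to ubiquinone, complex III passes them to cytochrome c, and complex IV passes them to oxygen. Complexes I, III and IV pump protons, and complex V (ATP synthase) uses the proton gradient to make ATP. Nuclear genes encode most of the subunits, and mitochondrial DNA encodes a small set of core subunits of complexes I, III, IV and V. Pluripotent stem cells are known for relying strongly on glycolysis, and the balance with respiration is known to shift during differentiation.

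RNA with poly(A) tails was sequenced from H9, an established human embryonic stem cell line, wild type in every group. The groups were made on day 4 (D4) and day 8 (D8) of neural differentiation and at day 0. On each of D4 and D8 the conditions were CT at 4.0 µM with retinoic acid (RA) at 1.0 µM, written CT4.0RA; IWP2, an inhibitor of WNT secretion, at 2.0 µM; and CT, a name the labels do not expand, at 0.0, 0.4, 0.8, 1.0, 2.0, 3.0 and 4.0 µM. CT0.0 cells are titled untreated. Undifferentiated cells at day 0 (D0) are the starting point. There are 19 groups of 2 libraries, 38 in all. Libraries came from 1 of 2 Illumina instruments, and the labels do not say which, so instrument and group cannot be told apart.

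Of the 38 libraries, 33 correlated best with the other library of their group, and r within groups was 0.958 to 0.972. Of 6 pluripotency markers, all but LIN28A followed the labels for the day, with lower means in D4 CT0.0 than in D0. POU5F1, a pluripotency factor, averaged 26.5 TPM in D4 CT0.0 and 2460 TPM in D0. LIN28A averaged 851 TPM in D4 CT0.0 and 674 TPM in D0. PAX6, a neural progenitor factor, averaged 1.49 TPM in D4 CT4.0 against 103 TPM in D4 CT0.0, and 1.54 TPM in D8 CT4.0 against 110 TPM in D8 CT0.0. T, a mesoderm factor, averaged 36.3 TPM in D4 CT4.0 and 22.2 TPM in D8 CT4.0. The labelled progenitor identity was therefore not uniform across conditions. Cytosolic ribosomal protein genes took 17.1% to 39.1% of the TPM of a library, and mitochondrially encoded genes took 5.58% to 11.5%. Because the total is fixed, these shares enter every other level. The main gene counts that turn on the scaling are also given with both classes left out of the total. Counts by complex, the order over groups, the correlations and the splits by motif or transcript start use TPM as deposited.

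The 95 genes tested were 37 of complex I, 5 of complex II, 10 of complex III, 16 of complex IV and 15 of complex V. A further 10 match the symbol rule but are assembly or coupling factors rather than subunits: NDUFAF1 to NDUFAF8, ATP5S and ATP5SL. The remaining 2 genes, NDUFC2-KCTD14 and ATP5J2-PTCD1, are transcripts that read through into a neighbouring gene. SDHD appears under 2 gene identifiers. NDUFA4 is counted with complex IV, where its product is now placed. The symbols of ATP synthase genes are the older ones of the file, so that ATP5G1, ATP5G2 and ATP5G3 stand for the present ATP5MC1, ATP5MC2 and ATP5MC3.

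Levels within each complex differed widely. In complex I, NDUFS5, an accessory subunit, had the highest mean over the 38 libraries, 591 TPM, and NDUFV3 the lowest, 13.3 TPM. In complex II, SDHC, a membrane anchor, averaged 167 TPM, and SDHD under its second identifier averaged 0.697 TPM. In complex III, UQCRH, the hinge protein, averaged 678 TPM, and its intronless copy UQCRHL averaged 0.393 TPM. In complex IV, COX7C averaged 784 TPM, and COX6B2 averaged 0.991 TPM. In complex V, ATP5G2 averaged 1109 TPM, the highest mean among the genes of complex V. ATP5E averaged 48.0 TPM, the lowest among the complex V genes tested. UQCRH and UQCRHL, the 2 SDHD identifiers, ATP5E and its retrocopy ATP5EP2, ATP5L and ATP5L2, and NDUFC2 and ATP5J2 with their readthrough transcripts share sequence, so how reads were split between them is uncertain.

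Where a subunit has tissue-restricted paralogues, 1 copy carried nearly all of the RNA. COX4I1 averaged 569 TPM and COX4I2 averaged 0.13 TPM. COX6A1 averaged 541 TPM, while the heart and muscle copy COX6A2 was listed at 0 in every library. COX6B1 averaged 261 TPM against 0.99 TPM for COX6B2, COX8A 676 TPM against 1.16 TPM for COX8C, and COX7B 53.2 TPM against 0.033 TPM for COX7B2. NDUFA4 averaged 134 TPM and NDUFA4L2, a copy known to be induced by hypoxia, averaged 2.13 TPM. Among the COX7A genes, COX7A2 averaged 153 TPM and COX7A2L, which joins complexes III and IV into supercomplexes, averaged 147 TPM, whereas the muscle copy COX7A1 averaged 1.58 TPM. The 5 genes that did not pass the filter were COX7B2, COX6A2, COX4I2, ATP5EP2 and ATP5L2, of which COX4I2 reached the highest value, 3.79 TPM in a single library.

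The summed share of all 100 genes was lowest in D8 CT4.0RA. They took 1.30% and 1.31% of all TPM in the D8 CT4.0RA libraries and 1.63% and 1.68% in D8 CT4.0. In D4 CT4.0RA they took 1.87% and 1.94%, against 1.79% and 1.81% in D4 CT4.0. In D4 CT0.0 they took 1.62% and 1.5%, against 1.92% and 1.96% in D0. Counted outside ribosomal protein and mitochondrially encoded genes, the share was highest in D4 CT4.0RA, at 3.14% and 3.27%, against 2.68% and 2.64% in D4 CT4.0. On that count D8 CT4.0RA, at 2.32% and 2.37%, was no longer the lowest: D4 IWP2 had 2.05% and 2.11%. The means of D4 CT0.0 (2.167%), D8 IWP2 (2.223%), D8 CT0.0 (2.241%), D8 CT0.4 (2.268%) and D8 CT2.0 (2.297%) were also below the D8 CT4.0RA mean of 2.345%. Both counts placed D8 CT4.0RA below D8 CT4.0, whose libraries had 2.58% and 2.63% outside those classes.

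**Figure D1:**
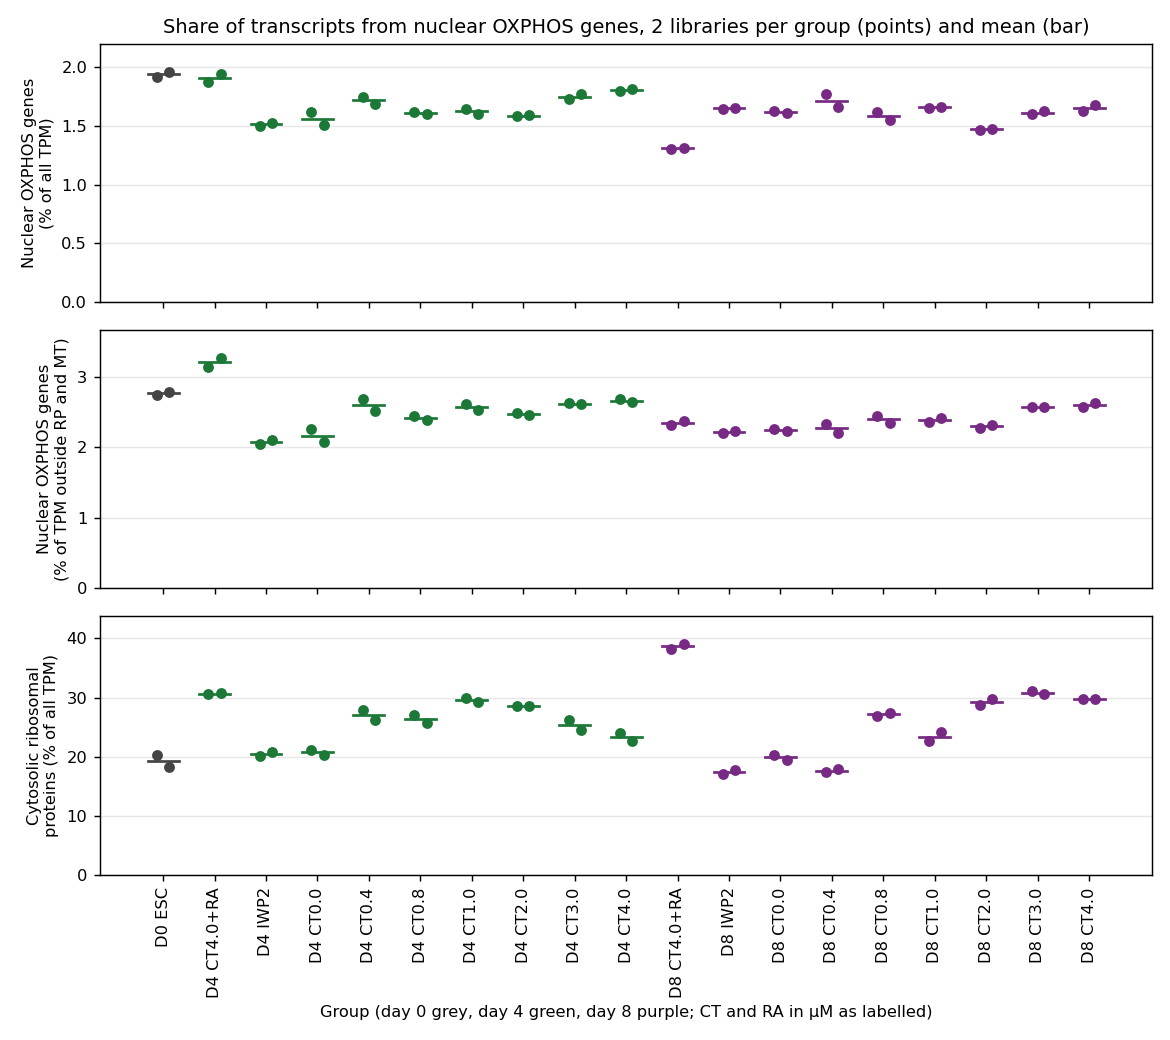
Share of TPM in each of the 19 groups, as % of all TPM for the nuclear OXPHOS genes (top), as % of the TPM outside ribosomal protein and mitochondrially encoded genes (middle), and as % of all TPM for cytosolic ribosomal protein genes (bottom). Points are the 2 libraries of a group and bars their mean; the D8 CT4.0RA libraries sit lowest in the top panel, at 1.30% and 1.31%, and highest in the bottom panel, at 38.2% and 39.1%.

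Neural differentiation without CT was compared first, D4 CT0.0 against D0. The nuclear OXPHOS genes fell more often than they rose. Each count was taken by limma on log2(TPM + 1) over all 38 libraries. With Benjamini-Hochberg adjustment over all genes tested, 45 of the 95 genes were lower in D4 CT0.0 and 7 were higher (adjusted p under 0.05). Over all genes tested, 16.3% were lower and 20.6% higher. Among 9055 protein-coding genes with a mean of at least 10 TPM, a comparison set chosen after the values were seen, 18.7% were lower and 39.0% higher. The median log2 change on log2(TPM + 1) was -0.29 for the OXPHOS genes and 0.05 for all genes tested. Every log2 change below is on this scale, on which changes at low levels come out too small.

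The decrease was found in each complex. The lower genes were 15 of 37 in complex I, 3 of 5 in complex II, 5 of 10 in complex III, 11 of 16 in complex IV, 8 of 15 in complex V and 3 of the 10 assembly and coupling factors. The higher ones were 3 in complex I, 2 in complex V and 2 among the assembly and coupling factors. With the libraries rescaled by median ratios the counts were 58 lower and 5 higher, against 20.3% and 14.9% of all genes. With ribosomal protein and mitochondrial genes left out of the total they were 49 and 6, against 16.9% and 19.0%.

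The c-ring of ATP synthase is encoded by 3 genes whose mature proteins are identical, and they did not move together. ATP5G1 (chromosome 17, 48892765 to 48895871, hg38) had 91.1 and 80.5 TPM in D4 CT0.0, against 225.6 and 206.1 TPM in D0. Its log2 change was -1.32 ± 0.138 (SE; limma adjusted p = 6.06e-08). ATP5G3 (chromosome 2, 175176258 to 175184607) had 184.3 and 182.4 TPM in D4 CT0.0, against 304.7 and 333.2 TPM in D0. ATP5G2 (chromosome 12, 53632726 to 53677408) had 1066 and 1032 TPM in D4 CT0.0, against 765.4 and 665.5 TPM in D0. The libraries of the 2 groups did not overlap for any of the 3 genes, with ATP5G1 and ATP5G3 lower and ATP5G2 higher in D4 CT0.0.

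SDHB, the iron-sulfur subunit of complex II (chromosome 1, 17018722 to 17054170), had 26.9 and 39.2 TPM in D4 CT0.0, against 64.7 and 76.4 TPM in D0 (log2 change -1.09 ± 0.161, limma adjusted p = 8.92e-06). COX5A, a complex IV subunit (chromosome 15, 74919791 to 74938168), had 170.7 and 190.0 TPM, against 351.6 and 373.1 TPM in D0 (-1.0 ± 0.1, adjusted p = 3.24e-08). In both genes the D0 libraries lay well above all D4 CT0.0 libraries. COX6B2, the testis form of a complex IV subunit, was the lowest by ratio, with 0.700 and 0.629 TPM in D4 CT0.0 against 12.6 and 5.11 TPM in D0 (-2.45 ± 0.321, adjusted p = 1.7e-06). It reached 1 TPM in only 6 of the 38 libraries, both D0 libraries among them, and its change was between -3.03 and -1.88 when single libraries were left out.

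Assembly factors of complex I moved in both directions. NDUFAF4 had 13.5 and 12.01 TPM in D4 CT0.0, against 28.8 and 33.5 TPM in D0 (-1.22, limma adjusted p = 5.31e-05), and NDUFAF7, which methylates a core subunit, changed by -1.03 (adjusted p = 1.79e-06). NDUFAF6 had 44.5 and 30.8 TPM in D4 CT0.0, against 13.8 and 16.0 TPM in D0 (1.26 ± 0.278, adjusted p = 8.64e-04). ATP5S, a coupling factor of ATP synthase, rose by 0.95 (adjusted p = 1.23e-04). NDUFA6, an accessory subunit of complex I, had 138.6 and 133.7 TPM in D4 CT0.0, against 83.5 and 91.8 TPM in D0, an increase of 0.63 (adjusted p = 4.67e-07).

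Genes around the respiratory chain were described by lists chosen for their role. Of 13 mitochondrially encoded OXPHOS genes, 11 were lower in D4 CT0.0 than in D0 and 0 were higher, with MT-CO2 at -0.91 and MT-ND4 at -0.64. Of 24 glycolysis and hypoxia genes, 18 were lower and 1 was higher; LDHA, which makes lactate, was at -4.41. Of 10 carrier and cytochrome c entries, 9 were lower, among them SLC25A5, an ADP/ATP carrier, at -1.07 and the outer membrane channel VDAC1 at -0.97. SLC25A6 is listed more than once, so the 10 entries stand for 9 genes, here and in the comparisons that follow. Of 19 genes of the citric acid cycle and pyruvate dehydrogenase, 4 were lower and 1 was higher, with IDH3A at -1.12 and MDH2 at -0.76. Of 78 mitochondrial ribosomal protein genes, 36 were lower and 4 higher. Of 43 assembly factor entries outside the symbol rule, 13 were lower and 5 higher, with CMC1 at -1.0 and COA6 at -0.98. Of 16 regulators of mitochondrial biogenesis, 4 were lower and 3 higher, with PPARGC1A at -1.06 and MYC at -0.83. The 3 higher ones were PPRC1 at 0.57, NRF1 at 0.56 and GABPB1 at 0.50. In bulk RNA, fewer cells of a type and less RNA per cell cannot be told apart, here or in the comparisons that follow.

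From D4 to D8 without CT, few genes moved. In D8 CT0.0 against D4 CT0.0, 15 of the 95 genes were higher and 5 were lower (limma), against 11% and 7.73% of all genes tested and 16.4% and 16.9% of the protein-coding genes of at least 10 TPM. Complex I held 8 of the higher and 3 of the lower genes. NDUFAF3, a complex I assembly factor, had 38.1 and 33.6 TPM in D8 CT0.0, against 15.4 and 18.4 TPM in D4 CT0.0 (log2 change 1.04, limma adjusted p = 1.9e-04). SDHA, the flavoprotein of complex II that oxidizes succinate (chromosome 5, 218241 to 256700), had 61.1 and 68.7 TPM, against 42.0 and 44.7 TPM in D4 CT0.0 (0.57). NDUFA7, an accessory subunit of complex I, had 124.7 and 112.2 TPM, against 79.1 and 73.2 TPM (0.63). All 3 had libraries that did not overlap between the days. The 3 largest decreases were small, at -0.40 for NDUFAF7, -0.34 for NDUFB2 and -0.30 for ATP5SL, and each lost its call in some fits without 1 library: 3 of 4 for NDUFAF7, 4 of 4 for NDUFB2 and 2 of 4 for ATP5SL.

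At 4.0 µM CT the change between days depended on the scaling. In D8 CT4.0 against D4 CT4.0, 3 genes were higher and 35 were lower (limma), against 5.67% and 16.9% of all genes tested and 9.23% and 36.0% of the protein-coding genes of at least 10 TPM. The share of lower genes was thus near that of other well expressed genes. There were 15 higher and 5 lower after median-ratio scaling, against 9.68% and 10.2% of all genes. Without ribosomal protein and mitochondrial genes in the total there were 10 higher and 15 lower, against 7.14% and 13.7%. The median log2 change of the OXPHOS genes was -0.18, and it was 0.02 and -0.09 under these scalings. Ribosomal protein genes took 29.7% of TPM in D8 CT4.0 and 23.3% in D4 CT4.0. The 35 lower genes became 14 without D4 CT4.0 replicate 2, 19 without D8 CT4.0 replicate 1 and 21 without D8 CT4.0 replicate 2.

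Among single genes in this comparison, NDUFB1, an accessory subunit of complex I, had 113.4 and 111.3 TPM in D8 CT4.0, against 183.3 and 200.8 TPM in D4 CT4.0 (-0.77, limma adjusted p = 4.22e-04). UQCR11, a small subunit of complex III, had 51.4 and 53.4 TPM, against 77.5 and 83.1 TPM in D4 CT4.0 (-0.61, adjusted p = 1.35e-04). NDUFA7 was higher by 0.44 and ATP5B, the catalytic subunit of ATP synthase, by 0.22 (adjusted p = 0.0067 and 0.00419). UQCRB at 0.37 and NDUFAF6 at -0.78 passed with all libraries, but UQCRB lost its call without any 1 of the 4 libraries, NDUFAF6 without D4 CT4.0 replicate 2 or D8 CT4.0 replicate 1, and NDUFA7 without D8 CT4.0 replicate 2. Of the 13 mitochondrially encoded OXPHOS genes, 10 were lower in D8 CT4.0, with MT-CYB at -1.21.

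CT at 4.0 µM raised many of these genes on D4. In D4 CT4.0 against D4 CT0.0, 35 of the 95 genes were higher and 5 lower (limma), while 8.69% of all genes tested were higher and 15.0% lower. Of the protein-coding genes of at least 10 TPM, 15.8% were higher and 28.4% lower. The median log2 change was 0.24 for the OXPHOS genes and -0.06 for all genes. The higher genes were 15 of 37 in complex I, 3 of 5 in complex II, 4 of 10 in complex III, 6 of 16 in complex IV and 5 of 15 in complex V. Median-ratio scaling gave 51 higher and 2 lower, against 10.6% and 11.8% of all genes. Leaving ribosomal protein and mitochondrial genes out of the total gave 50 and 2, against 10.5% and 12.3%. The count of higher genes was 19 without D4 CT0.0 replicate 2 and 23 without D4 CT4.0 replicate 2.

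SDHA had 78.3 and 86.0 TPM in D4 CT4.0, against 42.0 and 44.7 TPM in D4 CT0.0 (log2 change 0.91 ± 0.0648, limma adjusted p = 3.04e-10). ATP5G1 had 174.1 and 170.6 TPM, against 91.1 and 80.5 TPM in D4 CT0.0 (1.00, adjusted p = 7.15e-06). NDUFAF3 had 38.3 and 52.3 TPM, against 15.4 and 18.4 TPM in D4 CT0.0 (1.36 ± 0.178, adjusted p = 3.6e-06). In all 3 genes the lower CT4.0 library lay above the higher CT0.0 library. The lower genes included NDUFS8, an iron-sulfur core subunit of complex I, at -0.38, NDUFAF7 at -0.51 and ATP5S at -0.52. ATP5S lost its call under both other scalings and in 3 of 4 fits without 1 library, NDUFS8 without D4 CT4.0 replicate 1 or D4 CT0.0 replicate 2, and NDUFAF7 without D4 CT0.0 replicate 1.

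The surrounding lists differed from each other on D4, where 15.8% of the protein-coding genes of at least 10 TPM were higher and 28.4% lower. Of 24 glycolysis and hypoxia genes, 17 were higher in D4 CT4.0 and 3 lower, with LDHA at 3.68. Of 10 carrier entries 7 were higher and 0 lower, VDAC1 by 0.95 and SLC25A5 by 0.77. Of 78 mitochondrial ribosomal protein genes 30 were higher and 0 lower, and of 19 citric acid cycle genes 8 and 0, IDH3A by 0.85 and SUCLG1 by 0.67. Of 13 mitochondrially encoded OXPHOS genes 6 were higher and 0 lower. Of 43 further assembly factor entries 8 were higher and 3 lower, and of 16 biogenesis regulators 1 was higher and 4 lower, with MYC at -2.43. T averaged 36.3 TPM in D4 CT4.0 and 0.548 TPM in D4 CT0.0, while the mesoderm markers MIXL1 and MESP1 stayed under 1 TPM in both. In the same order, the summed level of 6 neural progenitor markers was 407 and 1060 TPM. That of 4 forebrain markers was 0.406 and 285 TPM, and that of 4 hindbrain and spinal cord markers 484 and 0.242 TPM. The part of these differences in cell type in the OXPHOS results was not tested.

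On D8 the same dose gave a mixed pattern. In D8 CT4.0 against D8 CT0.0, 20 genes were higher and 23 lower (limma), against 7.57% and 29.3% of all genes tested and 12.7% and 49.2% of the protein-coding genes of at least 10 TPM. The other scalings turned the balance round. After median-ratio scaling 38 were higher and 5 lower, against 12.1% and 20.4% of all genes. Without ribosomal protein and mitochondrial genes in the total the counts were 35 and 8, against 10.2% and 23.0%. These scalings moved the median log2 change of all genes by 0.188 and 0.127. Relative to the median of all genes, the median of the OXPHOS genes was higher by 0.21 on TPM as deposited, 0.29 after median-ratio scaling and 0.26 with those classes left out. Ribosomal protein genes took 29.7% of TPM in D8 CT4.0 and 19.9% in D8 CT0.0. Without D8 CT0.0 replicate 2, 11 genes were higher and 13 lower, and 13 were lower without D8 CT4.0 replicate 1.

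Of the 37 genes of complex I, 13 were lower and 5 higher, against 49.2% and 12.7% of the protein-coding genes of at least 10 TPM. Complexes II and III, of 5 and 10 genes, together held 6 higher and 3 lower. Among these 3, UQCRHL averaged only 0.0859 TPM in D8 CT4.0 and 0.493 TPM in D8 CT0.0. ATP5B had 892.8 and 872.9 TPM in D8 CT4.0, against 572.1 and 544.6 TPM in D8 CT0.0 (0.66 ± 0.0539, limma adjusted p = 1.49e-09). NDUFAF2, a late assembly factor of complex I, had 73.8 and 72.7 TPM, against 45.3 and 43.7 TPM in D8 CT0.0 (0.71, adjusted p = 4.28e-04). NDUFB1 had 113.4 and 111.3 TPM, against 175.4 and 198.3 TPM in D8 CT0.0 (-0.73, adjusted p = 3.55e-04), and ATP5S had 13.2 and 14.9 TPM, against 24.6 and 28.96 TPM (-0.88, adjusted p = 2.94e-04). These 4 genes had groups that did not overlap. NDUFAF4 (0.59) lost its call in 4 of 4 fits without 1 library. NDUFA3, a complex I subunit (-0.67), lost it in 3 of 4 and under both other scalings. Around them, 17 of 24 glycolysis and hypoxia genes were higher in D8 CT4.0 and 4 lower, with LDHA at 3.62, and 7 of 13 mitochondrially encoded OXPHOS genes were lower and 0 higher, with MT-ND1 at -0.88.

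Over the 7 CT doses a straight line was fitted on each day. On D4 the slope was above 0 for 42 of the 95 genes and below 0 for 6 (limma), against 12.4% and 14.5% of all genes tested and 21.8% and 25.5% of the protein-coding genes of at least 10 TPM. Mean SDHA over 0.0, 0.4, 0.8, 1.0, 2.0, 3.0 and 4.0 µM was 43.3, 39.1, 46.7, 46.0, 55.7, 80.6 and 82.1 TPM (0.28 ± 0.0128 log2 units per µM, limma adjusted p = 6.98e-14). Mean NDUFAF3 over the same doses was 16.9, 14.1, 14.8, 14.1, 20.8, 35.1 and 45.3 TPM (0.42 per µM). In both, the means at doses up to 1.0 µM lay close together and those at 3.0 and 4.0 µM stood above them. ATP5G1 had a slope of 0.20, and the lowest were ATP5S at -0.14, NDUFAF7 at -0.12 and NDUFB10, an accessory subunit of complex I, at -0.09. T averaged 0.0779 TPM at 2.0 µM and 13 TPM at 3.0 µM on D4. The hindbrain and spinal cord markers summed to 26.5 and 602 TPM at these doses. Most of this rise was HOXB9, at 3.05 and 500 TPM. HOXB4 and HOXA5 were higher at 3.0 µM too, while HOXA2 was lower, at 22.5 and 10.7 TPM. The part of these markers in the slopes was not tested.

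On D8 the slope was above 0 for 23 genes and below 0 for 40 (limma), against 10% and 38.3% of all genes tested and 15.4% and 59.2% of the protein-coding genes of at least 10 TPM. The balance was the other way round after median-ratio scaling, with 45 and 12 genes, against 16.2% and 27.6% of all genes. It was so too without ribosomal protein and mitochondrial genes in the total, with 38 and 17, against 14.1% and 30.7%. Mean ATP5B was 558, 654, 664, 566, 560, 918 and 883 TPM over the 7 doses (0.16 per µM, limma adjusted p = 1.17e-11). Mean ATP5S was 26.8, 22.6, 22.1, 27.9, 19.6, 9.20 and 14.1 TPM (-0.30 per µM, adjusted p = 1.26e-07). ATP5B was highest and ATP5S lowest at 3.0 and 4.0 µM, without an even course below. NDUFAF2 (0.23) and UQCRB (0.15) had the other 2 of the 3 steepest rises. NDUFAF1, which builds the membrane arm of complex I (-0.21), and NDUFB3, an accessory subunit (-0.19), had the next steepest decreases.

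The response to CT4.0 differed between the days for 24 of the 95 genes, tested as an interaction in limma: 22 had a lower and 2 a higher response on D8 than on D4, against 13.3% and 3.47% of all genes tested and 24.2% and 6.25% of the protein-coding genes of at least 10 TPM. The 3 largest differences were NDUFAF3 at -1.26, NDUFA8, an accessory subunit of complex I, at -1.03 and NDUFB3 at -0.97. In D8 the NDUFAF3 means were 38.5 TPM in CT4.0 and 35.9 TPM in CT0.0, while in D4 they were 45.3 and 16.9 TPM, so most of the contrast lay in the D4 CT0.0 level. For slopes, 43 genes had a lower and 6 a higher slope on D8 than on D4, against 27.4% and 4.89% of all genes and 47.5% and 7.97% of those protein-coding genes. Both counts were smaller under the other scalings. The 24 became 14 after median-ratio scaling and 18 without ribosomal protein and mitochondrial genes in the total, and the 49 slope differences became 26 and 32. In the same order, 8.79% and 10.7% of all genes had a lower CT4.0 response on D8 and 5.14% and 4.32% a higher one. For the slope, 16.6% and 20.2% were lower and 9.31% and 7.39% higher. Relative to the all-gene median, the median of the OXPHOS genes was at -0.05 for the CT4.0 difference and at 0.0084 per µM for the slope difference, so their median lay close to that of all genes.

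No nuclear OXPHOS gene passed for IWP2 in the fit over all genes. In D4 IWP2 against D4 CT0.0, 0 of 95 genes were higher or lower by limma, against 0.301% higher and 0.393% lower of all genes tested and 0.364% and 0.806% of the protein-coding genes of at least 10 TPM. At an unadjusted p under 0.05 there were 2 higher and 5 lower. All shares in this paragraph are for adjusted p. The unadjusted counts, here and below, have no share of all genes beside them and are not read as a result. In D8 IWP2 against D8 CT0.0 the counts were 0 and 0, against 0.446% and 0.333% of all genes and 0.718% and 0.398% of those protein-coding genes, and 10 and 2 unadjusted. SDHA had 55.1 and 49.7 TPM in D4 IWP2, against 42.0 and 44.7 TPM in D4 CT0.0 (0.27, limma adjusted p = 0.057). The count of higher genes on D4 was 1 with protein-coding genes alone and 1 without D4 IWP2 replicate 2. NDUFS5 had 635 and 685 TPM in D8 IWP2, against 663 and 625 TPM in D8 CT0.0. The difference between the days passed for 0 genes, against 0.216% higher and 0.120% lower of all genes and 0.464% and 0.110% of those protein-coding genes, and for 9 and 2 at an unadjusted p under 0.05. Of the 13 mitochondrially encoded OXPHOS genes, 2 were lower in D4 IWP2 than in D4 CT0.0, MT-ND5 at -0.53 (limma adjusted p = 1.27e-04) and MT-ND6 at -0.58 (adjusted p = 9.23e-04). Their difference between the days passed too, at 0.65 and 0.77. Over all 9 conditions of a day, an F test in limma passed for 58 genes on D4 and 83 on D8, against 46.4% and 57.9% of all genes tested and 83.1% and 91.8% of the protein-coding genes with a mean of at least 10 TPM.

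**Figure D2:**
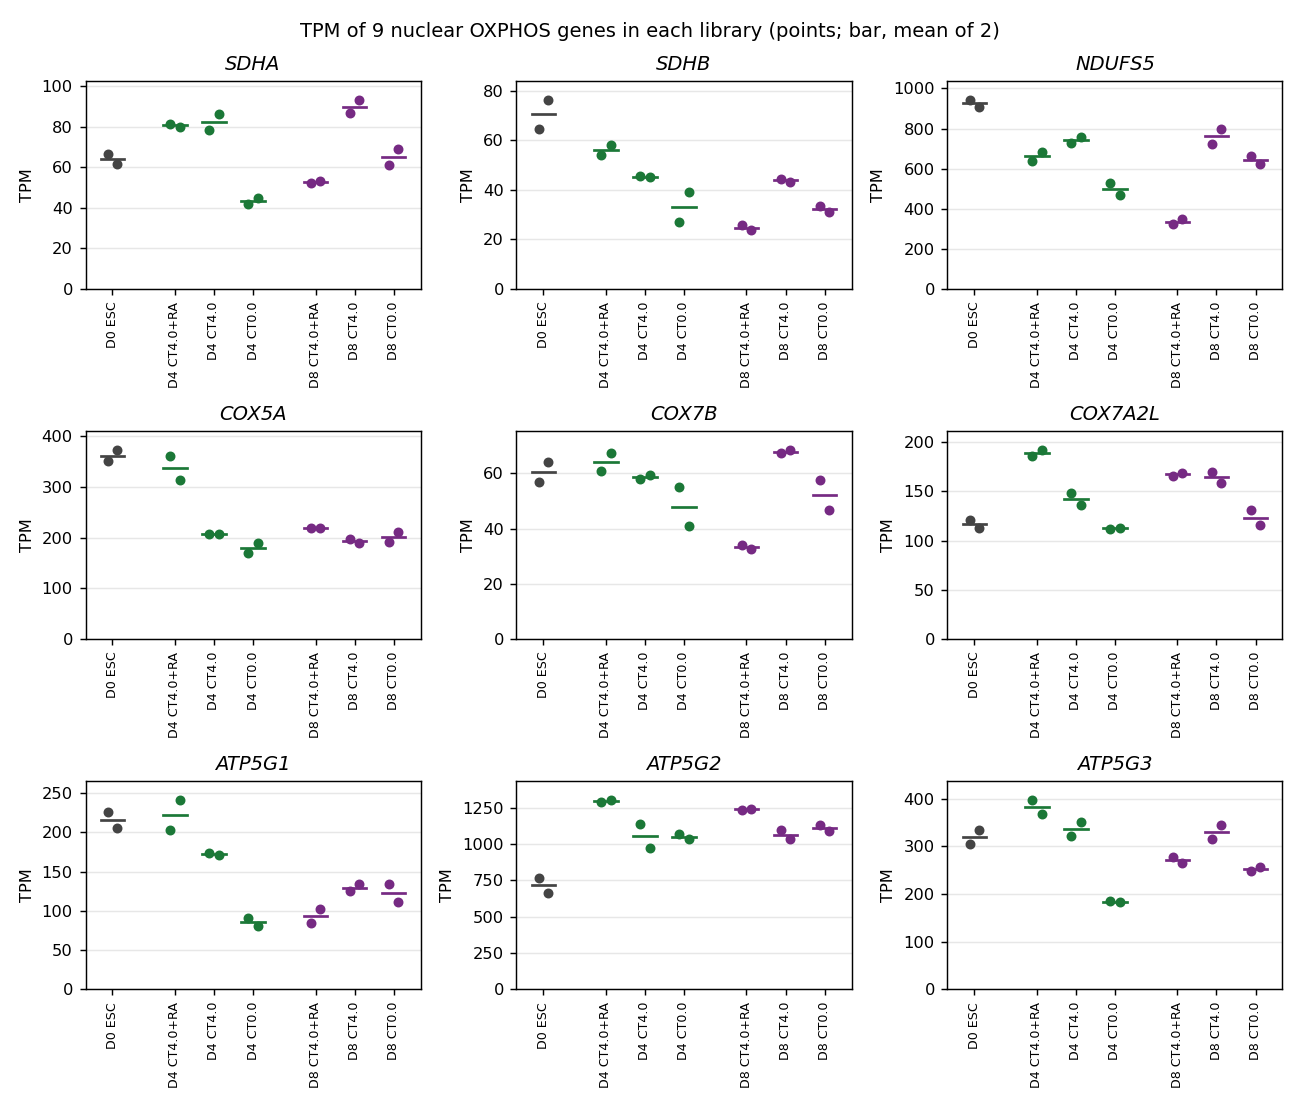
TPM of 9 nuclear OXPHOS genes in each library of D0 and of the D4 and D8 CT4.0RA, CT4.0 and CT0.0 groups, with 1 panel per gene and 2 points per group (horizontal bar, mean). SDHA was higher in CT4.0 than in CT0.0 on both days, NDUFS5 and COX7B were lowest in D8 CT4.0RA, and ATP5G2 was lowest in D0, at 765 and 666 TPM.

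RA was tested on top of 4.0 µM CT. On D4 it left most of the genes without a call on TPM as deposited: 7 of 95 were higher and 2 lower in D4 CT4.0RA than in D4 CT4.0 (limma), against 3.54% and 17.4% of all genes tested and 5.36% and 38.1% of the protein-coding genes of at least 10 TPM. Median-ratio scaling gave 39 higher and 0 lower, against 6.46% and 7.53% of all genes. Leaving ribosomal protein and mitochondrial genes out of the total gave 30 and 1, against 5.10% and 9.47%. These scalings moved the median of all genes by 0.177 and 0.130. Relative to the median of all genes, the median of the OXPHOS genes was higher by 0.20 on TPM as deposited, and by 0.30 and 0.26 on these scales. The share of ribosomal protein genes was 30.7% in D4 CT4.0RA and 23.3% in D4 CT4.0.

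Complex IV held 4 of the 7 higher genes. COX5A had 361.0 and 314.9 TPM in D4 CT4.0RA, against 207.3 and 206.8 TPM in D4 CT4.0 (0.70 ± 0.1, limma adjusted p = 1.55e-05). COX7A2L (chromosome 2, 42333546 to 42425088) had 186.3 and 191.9 TPM, against 147.9 and 136.5 TPM in D4 CT4.0 (0.41, adjusted p = 0.00125). Both genes were above their CT4.0 libraries in both RA libraries. NDUFAF2 had 78.7 and 80.1 TPM, against 63.4 and 52.7 TPM (0.45, adjusted p = 0.0286), a call lost in 3 of 4 fits without 1 library. NDUFS8 had 86.6 and 77.4 TPM, against 108.0 and 119.9 TPM in D4 CT4.0 (-0.47, adjusted p = 3.09e-04). Its call was lost after median-ratio scaling. NDUFV1, which binds NADH, was at -0.21 (adjusted p = 0.0452) on TPM as deposited but at 0.06 (adjusted p = 0.743) after median-ratio scaling. The counts of 7 higher and 2 lower became 3 and 1 without D4 CT4.0 replicate 2 or without D4 CT4.0RA replicate 2, and 1 was lower without D4 CT4.0RA replicate 1.

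On D8 many of these genes were lower with RA. In D8 CT4.0RA against D8 CT4.0, 50 of the 95 genes were lower and 1 higher (limma), against 15.3% and 10.1% of all genes tested. Of the protein-coding genes with a mean of at least 10 TPM, 33.6% were lower and 13.2% higher. The median log2 change was -0.40 for the OXPHOS genes, 0.00 for all genes tested and -0.17 for those protein-coding genes. Median-ratio scaling gave 29 lower and 8 higher with a median of -0.19, against 10.3% and 16.5% of all genes. Leaving ribosomal protein and mitochondrial genes out of the total gave 34 and 6 with a median of -0.22, against 10.7% and 15.2%. More genes were lower than higher on all 3 scales.

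In complex I, 25 of 37 genes were lower and 0 higher, with a median log2 change of -0.49. Complex II had 3 of 5 lower (median -0.76), complex III 5 of 10 (-0.29), complex IV 8 of 16 (-0.55) and complex V 6 of 15 (-0.25). Of the 10 assembly and coupling factors 3 were lower (-0.38), a share near that of the well expressed genes. Complex I genes together took 0.333% of TPM in D8 CT4.0RA and 0.481% in D8 CT4.0, or 0.598% and 0.758% outside ribosomal protein and mitochondrial genes. Complex V took 0.454% and 0.510% of all TPM, but 0.814% and 0.803% outside those classes, where its share was not lower with RA.

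NDUFS5 (chromosome 1, 39026318 to 39034636) had 323.1 and 348.0 TPM in D8 CT4.0RA, against 724.6 and 796.3 TPM in D8 CT4.0, a log2 change of -1.18 ± 0.0677 (limma adjusted p = 1.07e-11). COX7B, a complex IV subunit on chromosome X (77899438 to 77907373), had 33.9 and 32.6 TPM, against 67.3 and 68.4 TPM in D8 CT4.0 (-1.01 ± 0.112, adjusted p = 2.87e-07). SDHA had 52.1 and 53.1 TPM, against 86.5 and 93.1 TPM in D8 CT4.0 (-0.76, adjusted p = 5.41e-09), and SDHB had 25.7 and 23.8 TPM, against 44.6 and 43.2 TPM (-0.80, adjusted p = 5.25e-04). In these 4 genes both RA libraries were below both CT4.0 libraries, and the 2 libraries of each group lay close together. The mitochondrial acyl carrier protein NDUFAB1, chosen after its values were seen, had 109.7 and 108.5 TPM, against 203.0 and 197.7 TPM in D8 CT4.0 (-0.87).

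The c-ring genes again differed from each other. ATP5G1 had 84.1 and 102.1 TPM in D8 CT4.0RA, against 125.0 and 133.9 TPM in D8 CT4.0 (-0.48, limma adjusted p = 0.012). ATP5G3 had 277.9 and 264.5 TPM, against 315.9 and 345.1 TPM in D8 CT4.0 (-0.28, adjusted p = 0.00908). ATP5G2 had 1235 and 1243 TPM, against 1097 and 1033 TPM in D8 CT4.0 (0.22, adjusted p = 0.0426), the only higher call, and it did not pass in any of the 4 fits without 1 library.

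Promoters of 76 of the 100 genes could be matched by current symbol to RefSeq (GRCh38.p14), and the 250 bases before each start were searched on both strands. For 62 of the 76, bases 11 to 40 after the start lay in a GENCODE transcript of the gene. The core of ETS family sites, CCGGAAG, was in 17 of the 76 promoters (22.4%), against 8.52% of all 35116 promoters and 18.3% of 7414 promoters of other protein-coding genes with a mean of at least 10 TPM. The NRF1 palindrome, GCGCA followed by its reverse complement TGCGC, was in 3 (3.95%, against 1.03% of all promoters), the YY1 core AAGATGGCG in 1 (1.32%, against 0.652%), the ERR half-site TCAAGGTCA in 0 (against 0.319%) and TATAAA in 7 (9.21%, against 10.7%). ETS family factors such as GABP and the factor NRF1 are known activators of respiratory chain genes.

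The ETS core was found in 14 of the 40 matched genes that were lower in D8 CT4.0RA (35%) and in 3 of the 34 other matched genes that were tested (8.82%). Among the other protein-coding genes of at least 10 TPM it was in 18.9% of those lower, 15.1% of those higher and 18.7% of those that did not pass. This split was looked at after the RA calls were seen, and it is a description of letters, not of binding. Among the 14 genes are NDUFS3, ATP5J, NDUFA13 and NDUFA1. Their RefSeq starts lie 13738, 619, 489 and 345 bases inside the annotated gene, so the start in use may differ. The 17 genes with the core had a median log2 change of -0.49 in D8 CT4.0RA, and the 57 without it had -0.33.

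The promoters of 5 genes that were lower in D8 CT4.0RA are shown. They carry the ETS core or the NRF1 palindrome, and their RefSeq start lies within 27 bases of the gene start in the annotation. They were chosen after the values were seen. ATP5H, a stalk subunit of ATP synthase with the ETS core and a log2 change of -0.40 (limma adjusted p = 0.00274), meets the same criteria and is not shown; the 5 shown changed more. Each is given 5′ to 3′ on the strand of the gene, ending at the base before the start, with the motif in capitals. COX5B (chr2:97645812-97646061, plus strand), COX6A1 (chr12:120437863-120438112, plus strand), COX8A (chr11:63974370-63974619, plus strand) and NDUFAF4 (chr6:96897892-96898141, minus strand) hold the ETS core, read as CTTCCGG where it lies on the opposite strand. NDUFB4 (chr3:120596086-120596335, plus strand) holds the NRF1 palindrome.
COX5B: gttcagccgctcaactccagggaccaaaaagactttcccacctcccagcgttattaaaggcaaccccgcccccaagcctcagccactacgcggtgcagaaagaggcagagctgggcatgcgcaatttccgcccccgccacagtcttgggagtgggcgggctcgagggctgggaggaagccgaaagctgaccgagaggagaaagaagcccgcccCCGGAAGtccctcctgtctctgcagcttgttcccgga
COX6A1: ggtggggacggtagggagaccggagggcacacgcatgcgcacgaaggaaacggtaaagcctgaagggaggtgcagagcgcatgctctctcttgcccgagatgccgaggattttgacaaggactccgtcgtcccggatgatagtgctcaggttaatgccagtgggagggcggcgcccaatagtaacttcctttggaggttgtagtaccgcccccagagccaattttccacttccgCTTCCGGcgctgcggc
COX8A: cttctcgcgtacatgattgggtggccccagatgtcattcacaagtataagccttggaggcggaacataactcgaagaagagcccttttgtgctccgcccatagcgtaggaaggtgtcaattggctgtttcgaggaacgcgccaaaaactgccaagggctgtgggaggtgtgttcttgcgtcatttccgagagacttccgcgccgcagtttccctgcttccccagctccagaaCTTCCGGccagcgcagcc
NDUFAF4: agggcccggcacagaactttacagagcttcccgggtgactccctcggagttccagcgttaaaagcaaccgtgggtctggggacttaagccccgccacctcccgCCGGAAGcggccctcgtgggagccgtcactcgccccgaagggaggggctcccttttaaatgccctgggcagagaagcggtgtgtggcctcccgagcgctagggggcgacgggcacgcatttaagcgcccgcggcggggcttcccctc
NDUFB4: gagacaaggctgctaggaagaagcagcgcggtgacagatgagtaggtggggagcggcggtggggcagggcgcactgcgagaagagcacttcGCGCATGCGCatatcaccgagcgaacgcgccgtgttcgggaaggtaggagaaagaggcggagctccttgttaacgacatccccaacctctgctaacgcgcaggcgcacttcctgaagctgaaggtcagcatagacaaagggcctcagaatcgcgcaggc

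The motif begins 37 bases before the start in COX5B, 16 in COX6A1, 18 in COX8A, 147 in NDUFAF4 and 159 in NDUFB4. COX6A1 had 294.7 and 322.7 TPM in D8 CT4.0RA, against 502.8 and 536.2 TPM in D8 CT4.0 (log2 change -0.75). COX8A had 420.2 and 428.5 TPM, against 681.1 and 707.7 TPM (-0.71), and COX5B had 97.6 and 106.3 TPM, against 164.7 and 177.4 TPM (-0.74). These 3 subunits of complex IV changed by nearly the same ratio although their levels differed. NDUFB4, an accessory subunit of complex I, had 115.7 and 138.4 TPM, against 225.9 and 233.1 TPM in D8 CT4.0 (-0.85). NDUFAF4 had 7.23 and 7.13 TPM, against 16.3 and 17.7 TPM in D8 CT4.0 (-1.13, limma adjusted p = 2.14e-04).

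The lists around the chain are given beside the 33.6% lower and 13.2% higher of the protein-coding genes of at least 10 TPM. In D8 CT4.0RA, 12 of 19 citric acid cycle genes were lower and 0 higher, with PC at -1.20 and IDH3B at -0.92, and 6 of 10 carrier entries were lower and 0 higher, with CYCS, which encodes cytochrome c, at -1.06. Of 78 mitochondrial ribosomal protein genes 36 were lower and 2 higher, and of 43 further assembly factor entries 18 were lower and 2 higher, with UQCC1 at -1.03 and PET117 at -1.01. Of 16 biogenesis regulators 5 were lower and 1 higher; PPARGC1A, a coactivator of mitochondrial biogenesis, was at -1.54 and MYC at 1.33. Of 13 mitochondrially encoded OXPHOS genes 5 were lower and 1 higher, with MT-ND4 at -0.48 and MT-CYB, the higher one, at 0.26. Of 24 glycolysis and hypoxia genes 13 were lower and 4 higher, with the glucose transporter SLC2A1 at 1.75. Of the cytosolic ribosomal protein genes, 65 of 82 were higher and 4 lower, and together they took 38.6% of TPM in D8 CT4.0RA and 29.7% in D8 CT4.0. The summed level of 6 neural progenitor markers was 918 TPM in D8 CT4.0RA and 315 TPM in D8 CT4.0. That of 3 neuron markers was 334 and 174 TPM, most of it TUBB3 at 290 and 152 TPM. Single markers went the other way: SOX2 of the progenitor markers had 107 and 144 TPM, and ELAVL4 of the neuron markers 2.12 and 4.35 TPM. T averaged 0 and 22.2 TPM, while the mesoderm markers MIXL1 and MESP1 stayed under 1 TPM in both. The part of these marker differences in the OXPHOS decrease was not tested.

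The RA response differed between the days for 40 of the 95 genes, all with a lower response on D8 (limma interaction), against 4.58% lower and 10.6% higher of all genes tested and 10.5% and 18.6% of the protein-coding genes of at least 10 TPM. The median difference was -0.40 for the OXPHOS genes. This count was 49 after median-ratio scaling and 41 without ribosomal protein and mitochondrial genes in the total. In the same order, 5.64% and 4.83% of all genes had a lower response on D8, and 10.5% and 11.4% a higher one. Complex I held 16, complex IV 10, complex III 5, complex V 4, complex II 3 and the assembly and coupling factors 2. The largest differences were NDUFAF2 at -1.33 ± 0.205, NDUFAF4 at -1.26, COX7B at -1.13 and SDHB at -1.11. NDUFAF2 averaged 39.5 TPM in D8 CT4.0RA against 73.3 TPM in D8 CT4.0, and 79.4 TPM in D4 CT4.0RA against 58.1 TPM in D4 CT4.0: its means were below CT4.0 on D8 and above it on D4.

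**Figure D3:**
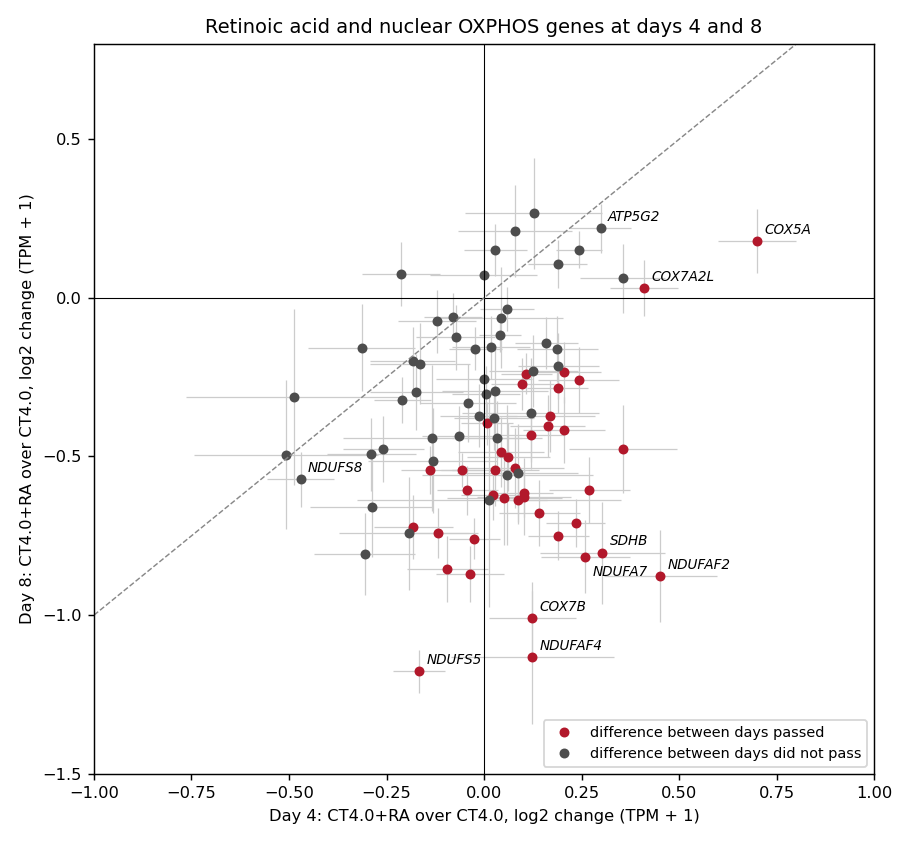
Log2 change with RA at 4.0 µM CT on D8 (vertical) against that on D4 (horizontal), both on log2(TPM + 1), for 88 genes with a mean of at least 5 TPM; bars are standard errors and the dashed line marks equal change. Red points are the 40 genes whose difference between days passed, and they lie below the line.

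The levels of a group can also be ordered over all 19 groups. Of 87 OXPHOS genes with a mean of at least 10 TPM, 54 (62.1%) had their lowest group mean in D8 CT4.0RA, against 24.5% of the 9055 protein-coding genes of that level. The highest group mean was in D0 for 25 genes (28.7%, against 14.1%) and in D4 CT4.0RA for 19 (21.8%, against 3.19%). This count was made after the values were seen and uses TPM as deposited.

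**Figure D4:**
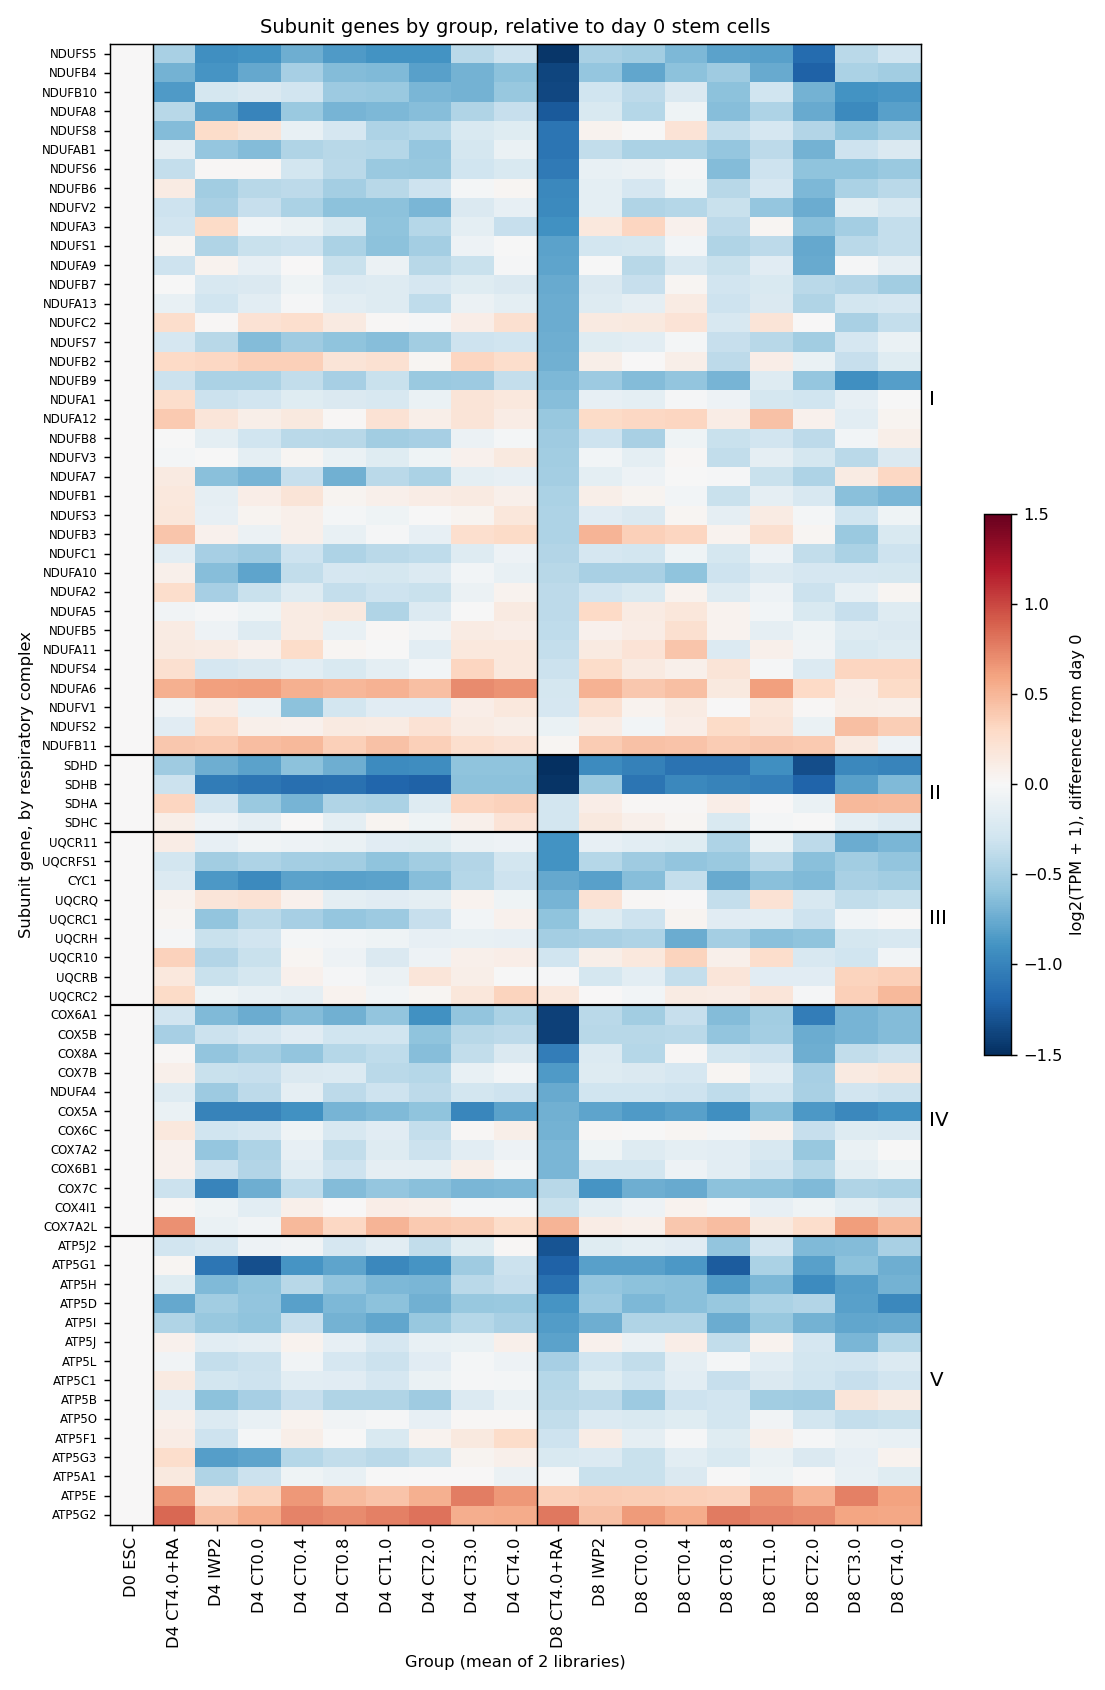
Difference of the group mean of log2(TPM + 1) from D0 for 77 subunit genes with a mean of at least 5 TPM, by complex, in the D4 and D8 groups; the colour scale ends at 1.5 log2 units in either direction. Within a complex, genes are ordered by D8 CT4.0RA. The 87 genes of at least 10 TPM, 54 of them with their lowest group mean in D8 CT4.0RA, include assembly and coupling factors that are not drawn.

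The genes did not all vary together. Over the 38 libraries, Pearson's r between the log2 level of a gene and the median of the other OXPHOS genes had a median of 0.518 and ranged from -0.405 to 0.816; it was over 0.5 for 48 genes and under 0 for 10. The libraries share groups and a fixed TPM total, so r is given as a description. NDUFA8 had the highest r. The 3 lowest were ATP5G2 at -0.405, ATP5SL, an assembly factor of the distal membrane arm of complex I, at -0.283, and COX7A2L at -0.276. With the median of the cytosolic ribosomal protein genes, r was 0.599 for ATP5G2 and 0.691 for COX7A2L, and -0.675 for NDUFA8.

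Transcripts of ribosomal protein genes are known for starting with a C followed by pyrimidines, the mark of messages whose translation follows growth signals. After the values were seen, the first bases of the RefSeq transcripts were read for a C and 4 pyrimidines. This start was found in 9 of the 76 matched OXPHOS genes (11.8%), in 43 of 67 ribosomal protein genes (64.2%) and in 4.04% of all genes with an entry. Among other protein-coding genes of at least 10 TPM it was in 6.18%, and in 9.37% of those that were higher in D8 CT4.0RA. The 9 genes were UQCRH, COX7A2L, NDUFC1, COX7C, ATP5L, ATP5G2, COX4I1, ATP5E and ATP5O. The RefSeq starts of ATP5G2, COX4I1 and COX7A2L lie 1325, 1062 and 63871 bases inside the annotated gene, so the start in use may differ. The median r of the 9 genes with the other OXPHOS genes was 0.0973 (-0.405 to 0.625), and that of 65 tested genes with another start was 0.563 (-0.283 to 0.816), so the ranges overlapped widely. Their median r with the ribosomal protein genes was 0.184 (-0.354 to 0.691), and that of the 65 genes was -0.418 (-0.905 to 0.599). In D8 CT4.0RA against D8 CT4.0, 1 of the 9 was higher and 1 lower with a median log2 change of -0.12, while 39 of the 65 were lower and 0 higher with a median of -0.49.

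**Figure D5:**
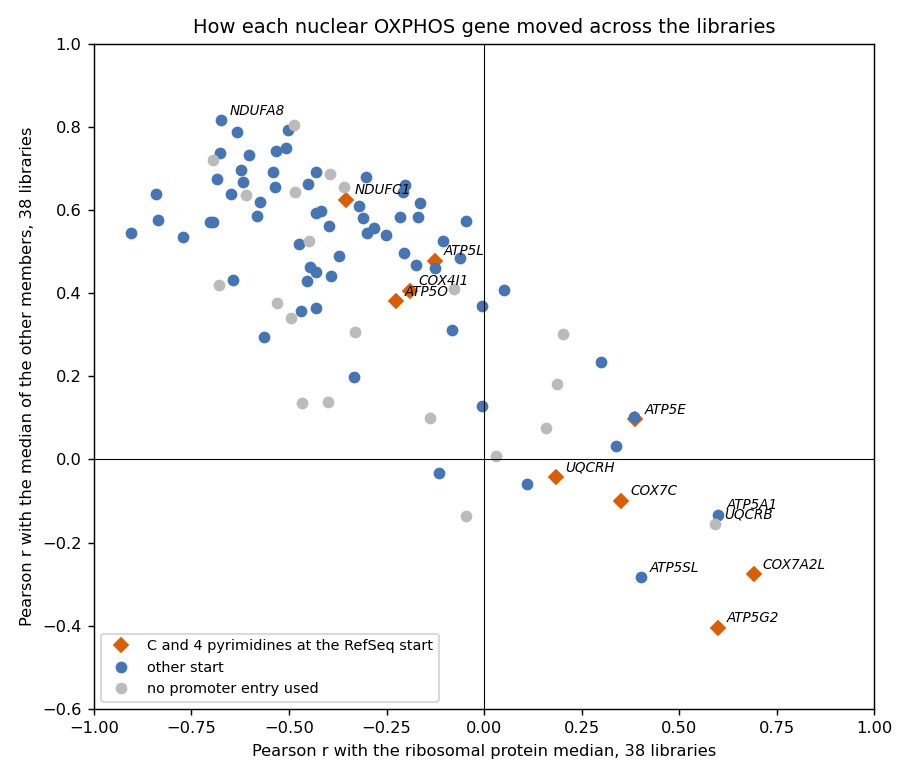
Pearson's r over 38 libraries between each gene and the median of the other nuclear OXPHOS genes (vertical), against its r with the median of cytosolic ribosomal protein genes (horizontal). Orange diamonds are 9 genes whose RefSeq transcript starts with C and a run of pyrimidines, blue circles other starts and grey circles genes with no promoter entry; ATP5G2 and COX7A2L sit at the lower right, at r of 0.599 and 0.691 with the ribosomal protein genes.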

How the data were processed

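Poly(A) RNA from 38 libraries in 19 groups of 2 was analysed, grouped by the labels. The deposited values are TPM per gene; the authors used CASAVA 1.7, Salmon 0.8.2 and hg38, per the submitters' processing notes. TPM keeps no depth, so the depth per library is unknown and no counting interval is given. The labels do not say whether the 2 libraries of a group came from separate differentiations, so p-values measure only the spread between these libraries, which may be technical.

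Genes that reached 1 TPM in 2 or more libraries were fitted as log2(TPM + 1) with limma 3.58.1 in R 4.3.3 (trend, 19 group means, 19 residual degrees of freedom, Benjamini-Hochberg adjustment over all genes tested). A gene passed at an adjusted p under 0.05. Slopes and differences between days were contrasts of the same fit. Tables and figures used Python 3.11.15, pandas 2.3.3, numpy 2.4.6 and matplotlib 3.10.9. The fit was tested on simulated data. Alternatives were a pseudocount of 0.1, no filter, median-ratio scaling over genes of at least 10 TPM in every library, a total without 84 ribosomal protein and 37 mitochondrially encoded genes, protein-coding genes alone, a replicate block, only the compared groups in the fit, and leaving out each library.

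The members and lists were chosen with earlier results of these data known. Genes were named by rule: per comparison the 3 largest passed changes each way with separate replicates, per complex the highest and lowest mean, all paralogue groups, all genes past 1 log2 unit (0.25 per µM for slopes), the 3 least coupled genes, and up to 2 genes per other list. The highest and lowest mean per complex were taken among the genes tested. Gene positions come from the GENCODE annotation on hg38, and promoters from RefSeq, GRCh38.p14.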

Additional observations from a re-analysis of the deposited data

Results flagged for a closer look

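The response to 4.0 µM CT differed between D8 and D4 for 24 of the 95 genes by the interaction in limma. Of all genes tested, 13.3% had a lower and 3.47% a higher response on D8. Of the protein-coding genes of at least 10 TPM, 24.2% had a lower and 6.25% a higher one. The D8 response minus the D4 response, on log2(TPM + 1), was 0.444 for ATP5SL, 0.261 for ATP5B, -1.26 for NDUFAF3, -1.03 for NDUFA8 and -0.968 for NDUFB3. The call for ATP5B was lost in 4 of 8 fits without 1 library.

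The response to RA at 4.0 µM CT differed between D8 and D4 for 40 genes, and it was lower on D8 in each of them. Of all genes tested, 4.58% had a lower and 10.6% a higher response on D8. Of the protein-coding genes of at least 10 TPM, 10.5% had a lower and 18.6% a higher one. The difference was -1.33 for NDUFAF2, -1.26 for NDUFAF4, -1.13 for COX7B, -1.11 for SDHB, -1.07 for NDUFA7 and -1.01 for NDUFS5.

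The slope over CT dose differed between D8 and D4 for 49 genes. Of all genes tested, 27.4% had a lower and 4.89% a higher slope on D8. Of the protein-coding genes of at least 10 TPM, 47.5% had a lower and 7.97% a higher one. In log2 units per µM, the D8 slope minus the D4 slope was 0.102 for UQCRB, 0.0951 for COX7C, 0.0922 for UQCRH, -0.421 for NDUFAF3, -0.352 for NDUFAF1, -0.279 for NDUFB3 and -0.276 for NDUFA8. The call for COX7C was lost in 3 of 28 fits without 1 library and that for UQCRB in 1.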

How the results depend on the processing

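Counts are of OXPHOS genes and medians are of their log2 changes. Without the filter, 3 genes were lower in D8 CT0.0 against D4 CT0.0, 5 higher in D8 CT4.0 against D4 CT4.0, 1 lower with RA on D4 and 0 higher with RA on D8. Median-ratio scaling gave a median of -0.45 in D4 CT0.0 against D0, and 2 lower in D8 CT0.0 against D4 CT0.0. It gave 15 higher and 5 lower (median 0.0243) in D8 CT4.0 against D4 CT4.0, and 2 lower (median 0.343) in D4 CT4.0 against D4 CT0.0. It gave 38 and 5 (median 0.212) in D8 CT4.0 against D8 CT0.0, a median of -0.023 for D8 IWP2, 39 and 0 (0.299) for RA on D4, 8 and 29 (-0.188) for RA on D8, and 45 and 12 (0.0515) for the D8 slope. The differences between days were 14 for CT4.0 and 26 for the slope, and NDUFV1 with RA on D4 turned to 0.0603. Without ribosomal protein and mitochondrial genes in the total, the values were 10 and 15 (-0.0909) in D8 CT4.0 against D4 CT4.0, 2 lower (0.332) in D4 CT4.0, 35 and 8 (0.125) in D8 CT4.0 against D8 CT0.0, 30 and 1 (0.217) for RA on D4, 6 higher (-0.217) for RA on D8, 38 and 17 (0.0377) for the D8 slope and 32 for the slope difference. With protein-coding genes alone, 5 were higher in D8 CT4.0 against D4 CT4.0, 1 in D4 IWP2 and 2 with RA on D8. Fits of only the compared groups gave 2 higher and 16 lower in D4 CT0.0 against D0, 2 and 1 in D8 CT0.0 against D4 CT0.0, 1 and 1 in D8 CT4.0 against D4 CT4.0, 9 and 0 in D4 CT4.0, 10 and 9 in D8 CT4.0 against D8 CT0.0, 0 and 0 for RA on D4 and 0 and 23 for RA on D8, with day differences of 11 for CT4.0 and 23 for RA; these fits hold fewer samples. Where it was not the construction of the alternative, the cause was not tested. The pseudocount of 0.1 changed no call of the 72 named results.

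Replicate numbers did not pair the libraries: the correlation of replicate differences was -0.0427 to 0.0372. With the replicate block 1 gene was lower with RA on D4, since NDUFV1 had an adjusted p of 0.0502 by limma, and it changed no other call of the 72 named results.

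Over fits that left out 1 library, medians were -0.319 to -0.214 in D4 CT0.0 against D0, -0.0101 to 0.0875 in D8 CT0.0 against D4 CT0.0, -0.253 to -0.154 in D8 CT4.0 against D4 CT4.0, 0.185 to 0.261 in D4 CT4.0, -0.0513 to 0.0264 in D4 IWP2, -0.444 to -0.336 for RA on D8 and -0.0413 to -0.0192 for the D8 slope. Higher genes numbered 19 to 37 in D4 CT4.0, 3 to 7 for RA on D4, 0 to 1 in D4 IWP2, 11 to 17 in D8 CT4.0 against D8 CT0.0 and 0 to 0 for RA on D8. Lower genes numbered 1 to 3 in D4 CT4.0, 1 to 2 for RA on D4, 1 to 3 in D8 CT0.0 against D4 CT0.0, 14 to 25 in D8 CT4.0 against D4 CT4.0 and 13 to 16 in D8 CT4.0 against D8 CT0.0. A lone library was assumed to vary like the other groups. TPM gives no depth, so low genes such as COX6B2 carry an unknown counting error.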

Other observations

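Genes around the respiratory chain that were not described above for D8 CT4.0 against D8 CT0.0 moved in both directions. Of 10 carrier entries 7 were higher and 2 lower by limma, with SLC25A5 at 0.87 and the uncoupling protein UCP2 at -1.23. Of 19 citric acid cycle genes 4 were higher and 3 lower, with citrate synthase CS at 0.67 and IDH2 at -0.68. Of 43 assembly factor entries outside the symbol rule 7 were higher and 18 lower, with SCO2, a copper chaperone of complex IV listed under 2 identifiers, at -1.51 and -0.97 and COA3 at -1.37. Of 78 mitochondrial ribosomal protein genes 21 were higher and 19 lower. Of 16 biogenesis regulators 3 were higher and 5 lower, with MYC at -3.57. These counts use TPM as deposited, on which 7.57% of all genes tested were higher and 29.3% lower.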
